A study of Sus scrofa with 6 samples.

Results

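The enzymes described here are the glutathione peroxidases GPX1, GPX3 and GPX4, the peroxiredoxins PRDX1, PRDX2 and PRDX6, the superoxide dismutases SOD1 and SOD2, catalase (CAT) and thioredoxin (TXN). All 10 genes are named in the annotation of the Affymetrix porcine array, and they were read at every probe set that carries one of these symbols alone, which gave 12 of the 23999 probe sets tested. GPX4 and TXN have a pair of probe sets each and the other 8 genes have 1. The epithelium of the uterine horn was scraped from 3 Landrace x Large White crossbred sows on day 6 after laparoscopic surgery. In each sow sperm had been injected into 1 oviduct, so that the uterine horn of that side held embryos at the blastocyst stage. The opposite oviduct had received the diluent without sperm, and its horn held unfertilised oocytes. RNA of each horn was hybridized to an array of its own, making 3 arrays for each kind of horn. Both horns belonged to the same sow, and the samples that carried embryos also came from the side that had received semen, so that embryos and semen cannot be told apart.

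These proteins handle reactive oxygen in successive steps. Superoxide dismutases turn superoxide into hydrogen peroxide, with copper and zinc in the cytosolic SOD1 and manganese in the mitochondrial SOD2. Catalase, the glutathione peroxidases and the peroxiredoxins then reduce peroxide to water, and thioredoxin returns electrons to PRDX1 and PRDX2. In the uterus this defence is known to follow the ovarian cycle, and early embryos are known to be sensitive to oxidative stress.

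Signals are on a linear scale in arbitrary units, as the authors deposited them from Microarray Suite 5.1, with a median per array of 30.6 to 35.8. Differences are between log2 values normalized by cyclic loess, with a positive value where the horn with embryos was higher. Of the epithelial markers 8 of the 9 measured genes lay above the median of the array, among them KRT8, CDH1 and EPCAM, and their summed signal was 8687 to 12075 with embryos and 8909 to 11495 with oocytes. The samples were not pure epithelium, since stromal markers summed to 3398 to 6842 with embryos and 3499 to 7324 with oocytes. For GAPDH the 5' control probe set relative to the 3' one, a measure that is lower in broken or partly copied RNA, read 0.243, 0.130 and 0.199 with embryos in sows 1, 2 and 3, against 0.355, 0.200 and 0.226 with oocytes (exact permutation test, two-sided, p = 0.4; with 3 arrays a group the smallest possible p is 0.1). That test did not pair the horns by sow. In each of the 3 sows the horn with embryos had the lower ratio, for actin too. As these are bulk samples, fewer cells of a type and less RNA per cell cannot be told apart.

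None of the 10 genes passed the test between the horns with embryos and with oocytes. With limma 0 of the 12 probe sets passed an adjusted p of 0.05 (smallest adjusted p = 1.00), where 0% of all probe sets passed, while an unadjusted p below 0.05 was found for 0 of 12, against 2.88% of the array. Their log2 fold changes ran from -0.37 to 0.50 with a median of 0.00, against 0.01 over all probe sets tested, and 6 lay above 0 and 6 below, where 50.8% of the array lay above 0. With the sow as a block 0 of 12 passed as well (smallest adjusted p = 0.493 from limma), and 1 of 12, the dimmer probe set of GPX4, had an unadjusted p under 0.05, against 8.70% of the array.

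Most of these differences had narrow intervals. For 8 of the 12 probe sets the 95% interval of the fold change lay within 1.5-fold in either direction (0.58 on the log2 scale), a limit chosen with results of these data known. These were GPX1, the brighter probe set of GPX4, PRDX1, PRDX2, PRDX6, SOD1, CAT and the brighter probe set of TXN. Over the array 23.8% of the probe sets had an interval that narrow, and 47.5% of those above the median signal. The median standard error of the 12 was 0.14 on the log2 scale, against 0.34 for all probe sets tested and 0.20 for those above the median signal. The fit let the variance follow the mean signal. The 8 probe sets with narrow intervals had mean log2 signals of 9.28 to 11.27, against a median of 4.93 over the array. No share was read among probe sets of equal brightness, so that brightness and gene cannot be told apart here. With the sow as a block 10 of 12 intervals lay within 1.5-fold, against 38.1% of the array and 75.9% of the probe sets above the median signal, and the other 2 were GPX3 and the dimmer probe set of GPX4.

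**Figure D1:**
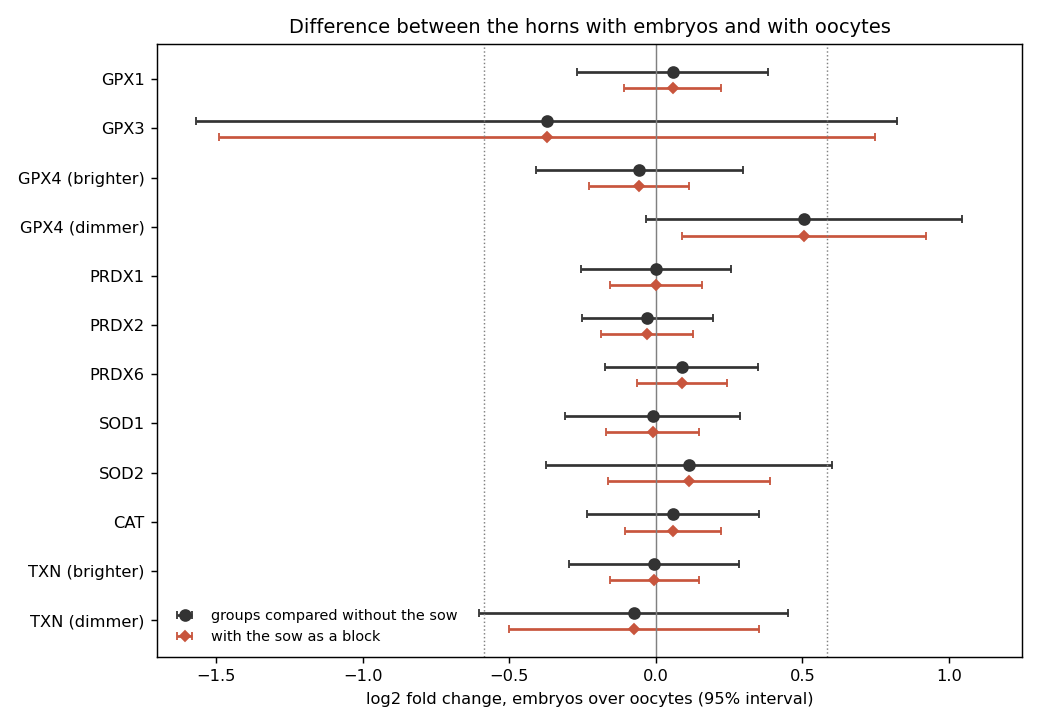
Log2 fold change of embryos over oocytes (x axis) for each of the 12 probe sets, with the 95% interval from limma without the sow (black circles) and with the sow as a block (red diamonds). Dotted lines mark 1.5-fold in either direction, and 8 of the 12 black intervals lie between them.

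Among the superoxide dismutases, SOD1 had a signal of 978, 1170.3 and 921 with embryos in sows 1, 2 and 3, against 1044, 1130.0 and 915 with oocytes. Sow 2 was the highest and sow 3 the lowest in both horns, and the groups overlapped. SOD1 differed by a log2 fold change of -0.01 (standard error 0.13, 95% interval -0.31 to 0.29), and of -0.06 with the 5'/3' control ratio as a covariate. SOD2, the mitochondrial enzyme, had 126, 147 and 102 with embryos, against 136, 119.7 and 90.4 with oocytes. It was higher with embryos in sows 2 and 3 and lower in sow 1, and sow 3 was again the lowest in both horns. For SOD2 the log2 fold change was 0.11 (standard error 0.21, 95% interval -0.38 to 0.60). Leaving out the oocyte array of sow 3 gave -0.06, and leaving out the embryo array of sow 2 gave -0.02.

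Catalase, which splits hydrogen peroxide in peroxisomes, had a signal of 579, 625 and 703 with embryos in sows 1, 2 and 3, against 529, 625 and 679 with oocytes. The order of the sows was the same in both horns, with sow 1 lowest and sow 3 highest. The log2 fold change between the groups was 0.06 (standard error 0.13, 95% interval -0.23 to 0.35) and 0.00 with the 5'/3' covariate, while the sow means spanned 0.28 on the log2 scale. Red cells are rich in catalase, and the summed signal of HBB, ALAS2 and AHSP, the 3 of 10 red cell markers that were measured, was 449.5, 718 and 1095 with embryos, against 383, 755 and 1124 with oocytes, in the same order of sows. Of these markers ALAS2 and AHSP had that order and HBB did not, with 289, 255 and 213 with embryos and 292, 251 and 291 with oocytes. The summed signal of the epithelial markers was also lowest in sow 1. It was 8687, 11246 and 12075 with embryos in sows 1, 2 and 3, against 8909, 11495 and 11303 with oocytes. The part of red cells or of epithelium in the signal of catalase was not tested.

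Among the glutathione peroxidases, which reduce peroxides with glutathione at a selenocysteine, GPX1 had a signal of 2729, 2524 and 2293 with embryos in sows 1, 2 and 3, against 2741, 2559 and 2024 with oocytes. Sow 1 was the highest and sow 3 the lowest in both horns, and only in sow 3 was the horn with embryos the higher one. The log2 fold change was 0.06 (standard error 0.14, 95% interval -0.27 to 0.38), and 0.15 with the 5'/3' control ratio as a covariate. GPX3, the secreted plasma enzyme, was dim at its probe set, with 14.8, 10.0 and 5.00 with embryos and 11.2, 16.0 and 8.60 with oocytes. It was the 1 probe set of the 12 below the median signal of the array. The log2 fold change of GPX3 was -0.37 (standard error 0.52), and its 95% interval ran from -1.57 to 0.82, so that the direction was not settled at this signal. Leaving out the embryo array of sow 3 gave 0.05.

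GPX4, which reduces lipid peroxides within membranes, had a bright and a dim probe set that the annotation gives to the same gene. The brighter one had 1098, 1417 and 1164 with embryos in sows 1, 2 and 3, against 1191.5, 1565 and 1098 with oocytes. It was lower with embryos in sows 1 and 2 and higher in sow 3, with a log2 fold change of -0.06 (standard error 0.15, 95% interval -0.41 to 0.30), and of -0.18 with the 5'/3' control ratio of GAPDH and actin (mean log2) in the model as a covariate. The dimmer one had 56.3, 61.4 and 61.7 with embryos, against 40.3, 53.3 and 34.4 with oocytes. Every deposited signal with embryos was above every one with oocytes, while after normalization the groups overlapped. In deposited signals this held for 1 of the 12 probe sets, against 3.98% of the array, and 0 of 12 had all embryo arrays below the oocyte arrays, against 3.35%. In normalized values it held for 0 of 12 in either direction, against 4.03% of the array with embryos above and 3.98% with embryos below. The mean was 59.8 ± 3.03 with embryos and 42.7 ± 9.67 with oocytes (SD, n = 3 each).

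The log2 fold change of the dimmer GPX4 probe set was 0.50 (standard error 0.24, 95% interval -0.03 to 1.04, unadjusted p = 0.0630 and adjusted p = 1.00 from limma), the largest of the 12. With the sow as a block the unadjusted p was 0.0224 and the adjusted p 0.493. The difference between the horns was 0.45, 0.24 and 0.82 in sows 1, 2 and 3, against -0.13, -0.15 and 0.11 for the brighter probe set, so that the probe sets differed in size in every sow and in sign in sows 1 and 2. With the covariate the dimmer probe set was at 0.38 (unadjusted p = 0.156 from limma). It was 0.30 with 32 added to each signal, and leaving out the oocyte array of sow 2 gave 0.69, that of sow 3 0.37. For ciliated cells 3 of 7 markers were measured, CCDC78, TEKT1 and CAPS, 2 of which lay below the median of the array. Their summed signal was 83.9, 77.3 and 90.6 with embryos, against 59.1, 63.6 and 68.9 with oocytes, and their part in the GPX4 signal was not tested. All 3 were higher with embryos in each sow, while in each of the other marker lists the measured genes had fold changes of both signs.

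Among 6103 other probe sets with 1 symbol and a signal above the median, the closest to the dimmer GPX4 probe set over the 6 arrays were SERINC3 (Pearson r = 0.996), NPEPL1 (r = 0.986) and TSC22D3 (r = 0.984). With 6 arrays and so many probe sets such values are a description only.

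The peroxiredoxins, which reduce peroxides at a cysteine, had the smallest spread over the 6 arrays among the 12 probe sets. PRDX2, which is abundant in cytosol, had 1603, 1726 and 1756 with embryos in sows 1, 2 and 3, against 1737, 1751 and 1715 with oocytes. All 6 signals lay within 1.10-fold of each other, and the log2 fold change was -0.03 (standard error 0.10, 95% interval -0.25 to 0.19). PRDX1 had 1421, 1625 and 1556.5 with embryos, against 1379, 1539.5 and 1704 with oocytes. It was higher with embryos in sows 1 and 2 and lower in sow 3, with a log2 fold change of 0.00 (standard error 0.11, 95% interval -0.25 to 0.26). Its sign turned to -0.07 with the 5'/3' covariate.

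PRDX6, the peroxiredoxin that also reduces phospholipid peroxides, had 1065, 1121.5 and 934 with embryos in sows 1, 2 and 3, against 976, 1036 and 921 with oocytes. It was higher with embryos in each of the 3 sows, by 0.12, 0.11 and 0.04 on the log2 scale, although the groups overlapped. The log2 fold change was 0.09 (standard error 0.11, 95% interval -0.17 to 0.35, unadjusted p = 0.462, and 0.230 with the sow as a block, both from limma). Together with the dimmer GPX4 probe set it made 2 of 12 (16.7%) that were higher in all 3 sows, against 14.9% of the array, and 0 of 12 were lower in all 3, against 14.8%.

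Thioredoxin carries electrons to PRDX1, PRDX2 and other proteins. Its brighter probe set had 1604, 1426 and 1599 with embryos in sows 1, 2 and 3, against 1633, 1365 and 1673 with oocytes. Sow 2 was the lowest in both horns, and the log2 fold change was -0.01 (standard error 0.13, 95% interval -0.30 to 0.28). The dimmer one had 69.5, 41.2 and 56.5 with embryos, against 52.3, 54.7 and 65.5 with oocytes. It was higher with embryos in sow 1 and lower in sows 2 and 3, by 0.38, -0.38 and -0.23 on the log2 scale, with a log2 fold change of -0.08 (standard error 0.23). The brighter probe set moved the opposite way in sows 1 and 2, by -0.04 and 0.06, and the same way in sow 3, by -0.04. With the 5'/3' covariate the fold changes were 0.10 and 0.03, and the brighter probe set was at 0.02 with quantile normalization.

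**Figure D2:**
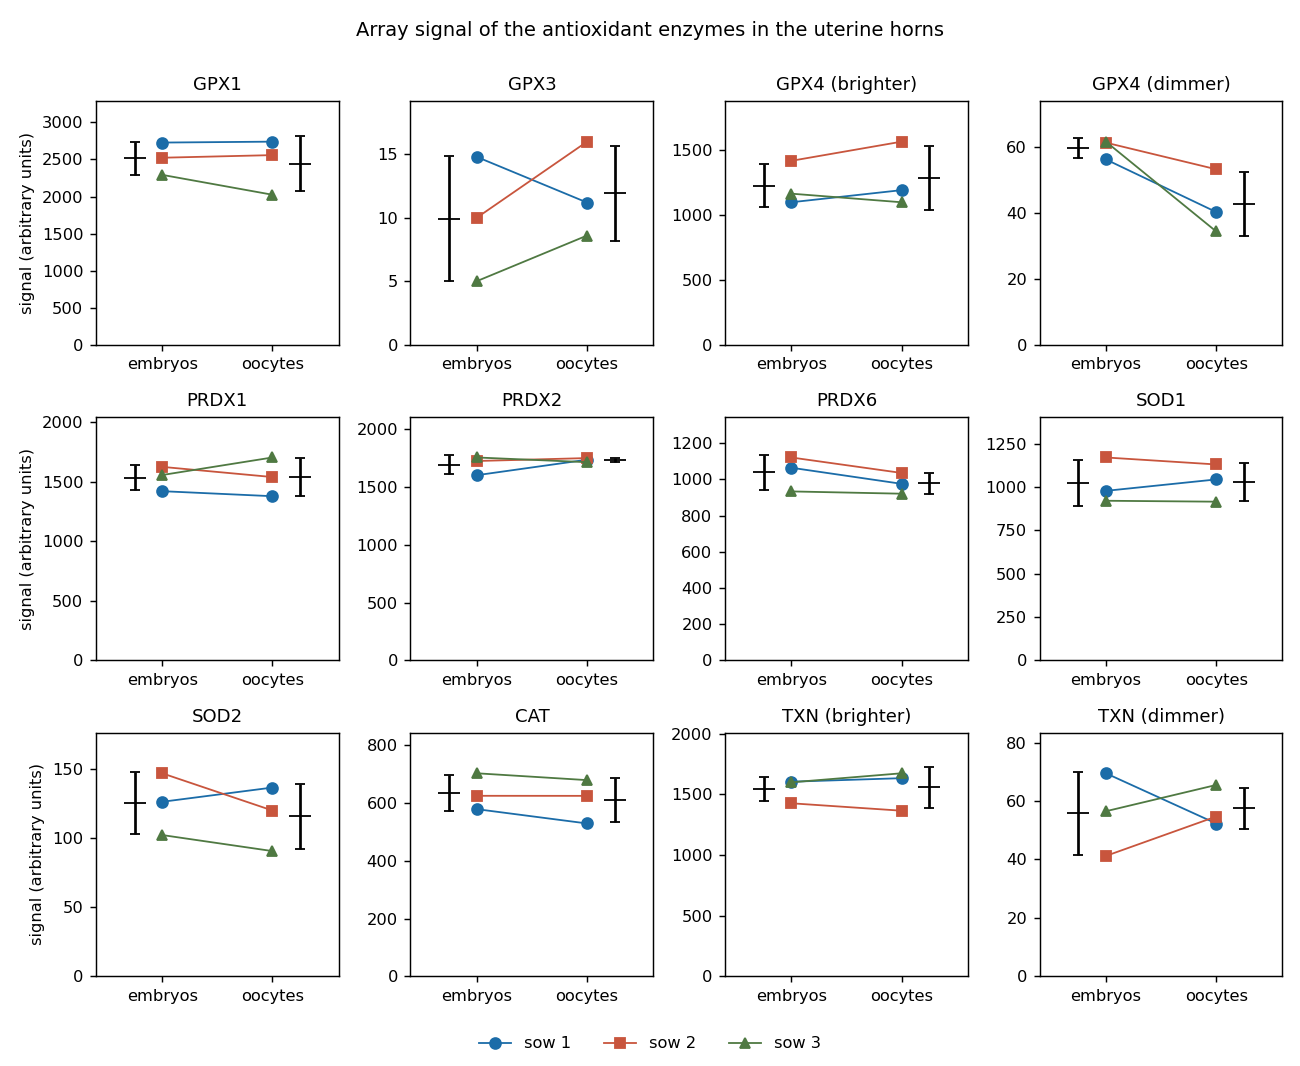
Array signal (y axis, arbitrary units, from 0) of the 12 probe sets in the horns with embryos (left) and with oocytes (right). Symbols stand for sows, a line connects both horns of a sow, and means ± SD over 3 sows are in black. The dimmer GPX4 probe set is higher with embryos in every sow.

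For most of these genes, as for most probe sets above the median signal, differences between sows were larger than those between the horns. The means of the 3 sows spanned more than the largest difference between the horns of any sow for 9 of the 12 probe sets, against 43.8% of the array and 56.7% of the probe sets above the median signal. The exceptions were PRDX2 and the dimmer probe sets of GPX4 and TXN, and the 9 included GPX3, which lay below the median signal. Among the 11 probe sets above the median signal the span of the sow means ran from 0.03 for PRDX2 to 0.48 for SOD2 on the log2 scale. The largest difference between horns ran from 0.06 for the brighter TXN probe set to 0.82 for the dimmer GPX4 probe set. The genes did not share 1 order of sows. Sow 3 was the lowest for GPX1, GPX3, the brighter GPX4 probe set, PRDX6, SOD1 and SOD2, and sow 1 was the lowest for CAT, PRDX1, PRDX2 and the dimmer GPX4 probe set. Within the sows the median difference over the 12 probe sets was 0.01, 0.02 and 0.05 in sows 1, 2 and 3, with 6, 6 and 8 of them above 0.

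**Figure D3:**
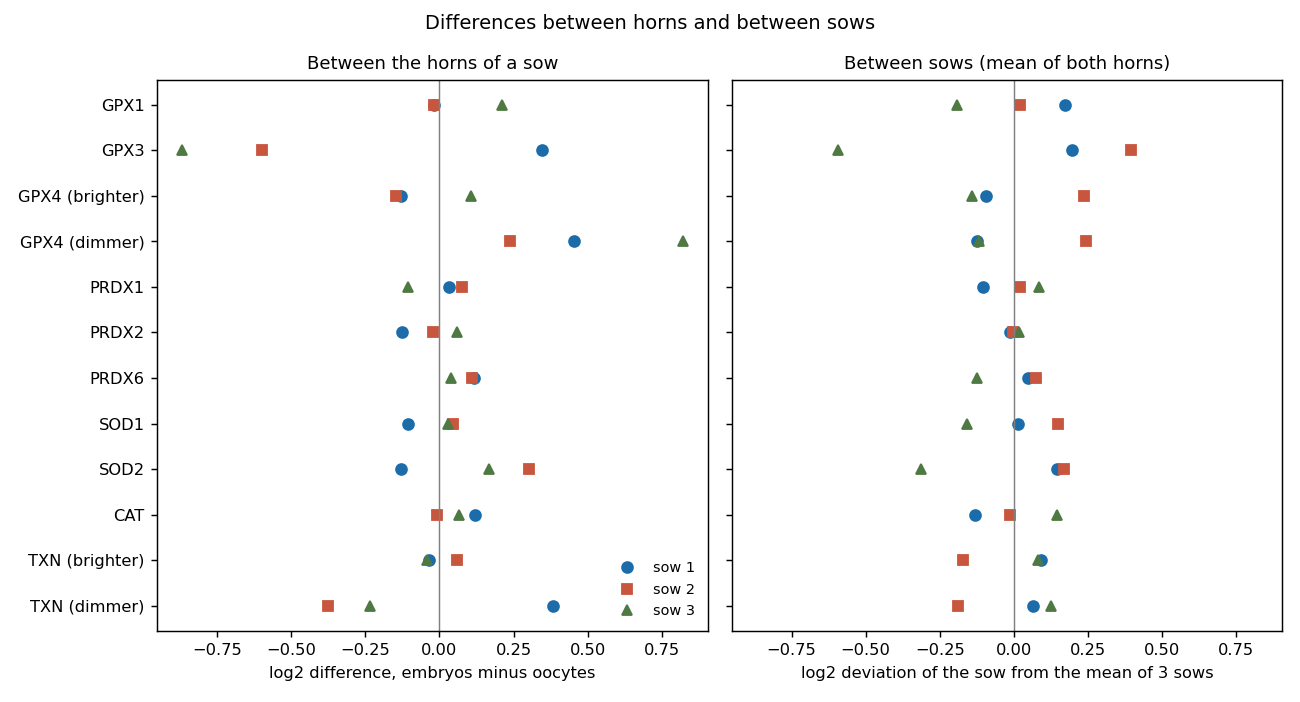
Log2 difference between the horns of each sow, embryos minus oocytes (left), and log2 deviation of each sow's mean from the mean of 3 sows (right), for the 12 probe sets. Symbols mark the sow, and for 9 of the 12 the sow means span more than the largest difference between horns.

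The other genes of peroxide and glutathione metabolism were read from a list of 102 gene symbols in 7 groups, of which 60 were measured at 92 probe sets. SELENOP, SELENOF and SELENOW are in that list under an older symbol as well. With limma neither an adjusted nor an unadjusted p below 0.05 was found for any of the 92 (0 and 0, against 0% and 2.88% of the array), with a median log2 fold change of -0.02. With the sow as a block 0 passed (smallest adjusted p = 0.384) while 5 (5.43%) came below 0.05 unadjusted, against 8.70% of the array. Of these 4 were higher with embryos, against 3.75% of the array, and 1 was lower, against 4.95%. Of the 92 probe sets 11 were higher in all 3 sows, against 14.9% of the array, and 15 (16.3%) were lower, against 14.8%, both close to the share of the array.

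Of the remaining peroxidases, peroxiredoxins, SOD3 and TXN2, 9 of 10 genes were measured at 13 probe sets, with a median log2 fold change of 0.04. GPX2, the glutathione peroxidase of gastrointestinal epithelium, had a signal of 55.9, 39.2 and 44.1 with embryos in sows 1, 2 and 3, against 37.4, 18.1 and 40.5 with oocytes. It was higher with embryos in each sow. The log2 fold change between the groups was 0.60 (standard error 0.33, unadjusted p = 0.105, and 0.0370 with the sow as a block, both from limma). With the 5'/3' covariate GPX2 was at 0.81. GPX5, known from the epididymis, was dim at both of its probe sets, whose highest signals were 14.0 and 7.80. The peroxiredoxins PRDX3 of mitochondria, PRDX4 of the endoplasmic reticulum and PRDX5 had log2 fold changes of -0.06, 0.06 and 0.04 at their brightest probe sets, and of -0.21, -0.03 and 0.11 with the 5'/3' covariate.

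Partners of thioredoxin were measured for 13 of 15 genes at 20 probe sets, with a median of 0.03. TXNIP, the inhibitor that binds reduced thioredoxin, had 1841, 1850.0 and 1763 with embryos, against 1695, 1785 and 1415 with oocytes. TXNIP was thus at 0.17 on the log2 scale (standard error 0.12, unadjusted p = 0.197 from limma). All embryo signals of TXNIP except that of sow 3 were above all oocyte signals as deposited. GLRX, a glutaredoxin, had 581, 664 and 698.5 with embryos, against 775, 669.8 and 779.9 with oocytes at one probe set (log2 fold change -0.20, standard error 0.12), and was at 0.01 at another, which the covariate turned to -0.08.

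For the synthesis and reduction of glutathione 7 of 10 genes were measured at 18 probe sets, with a median of -0.09. GSR, the reductase that regenerates glutathione, had 193, 159 and 176 with embryos, against 137, 145 and 160.0 with oocytes at its brightest probe set. Its log2 fold change there was 0.25 (standard error 0.14, unadjusted p = 0.117, and 0.0480 with the sow as a block, both from limma). A second probe set was at -0.49 (standard error 0.27) with 37.5, 21.6 and 33.4 with embryos and 43.3, 48.9 and 35.1 with oocytes. Another GSR probe set, below the median signal, was at 0.67 (standard error 0.77). GGT1, which breaks down extracellular glutathione, was at -0.13 at its brightest probe set, the only one of 4 above the median signal. The dim ones ran from -1.08 to 1.08, and the probe sets at these ends were at -0.22 and 0.14 with the covariate. The glutathione transferases were measured for 8 of 19 genes at 12 probe sets, with a median of -0.07, and the brightest probe sets of GSTA4 and GSTK1 were at -0.11 and 0.21 (-0.14 and 0.46 with the covariate), with a dim second GSTA4 probe set at -0.87.

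Metal supply and selenoprotein synthesis had 8 of 17 listed symbols at 11 probe sets, with a median of -0.01. The 17 hold SELENOP, SELENOF and SELENOW under an older symbol too, so that fewer genes than symbols were listed. SEPHS2, which makes the selenium donor for selenocysteine, had 218, 96.3 and 118 with embryos, against 271, 136 and 142 with oocytes at one probe set (-0.36 on the log2 scale, standard error 0.36, unadjusted p = 0.335, and 0.00570 with the sow as a block, both from limma). With the 5'/3' covariate that probe set was at 0.15, and the brightest SEPHS2 probe set was at 0.05, or 0.22 with the covariate. SELENOF, a selenoprotein of the endoplasmic reticulum, was at 0.12, and at -0.05 with the covariate. The NRF2 pathway, the main inducer of antioxidant genes, had 7 of 14 genes at 8 probe sets, with a median of 0.03. NFE2L2, the gene of NRF2 itself, and KEAP1, MAFG and MAFK were not among the 7. SESN1, a sestrin, was at 0.37 (standard error 0.18, unadjusted p = 0.0682, and 0.0156 with the block, both from limma) and at -0.03 at its other probe set, with covariate values of 0.29 and 0.05. SQSTM1, an autophagy receptor, had 467.5, 589 and 495 with embryos, against 413, 491 and 414 with oocytes, or 0.23 on the log2 scale (standard error 0.13, unadjusted p = 0.112, and 0.0129 with the block, both from limma). With the covariate SQSTM1 was at 0.13. The sources of superoxide or peroxide had 8 of 17 genes at 10 probe sets, with a median of -0.17. These were the enzymes DUOX1, DUOX2, MAOA and MAOB, with the oxidase subunits or partners CYBA, NCF1, NCF4 and RAC2. DUOX1 and DUOX2, the dual oxidases, were dim in both horns, with no signal above 14.0. Both lay below the median signal and were lower with embryos in each sow. Their log2 fold changes were -1.07 and -0.95 (standard errors 0.57 and 0.66, unadjusted p = 0.0934 and 0.185 from limma), and -0.69 and -1.49 with the covariate.

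**Figure D4:**
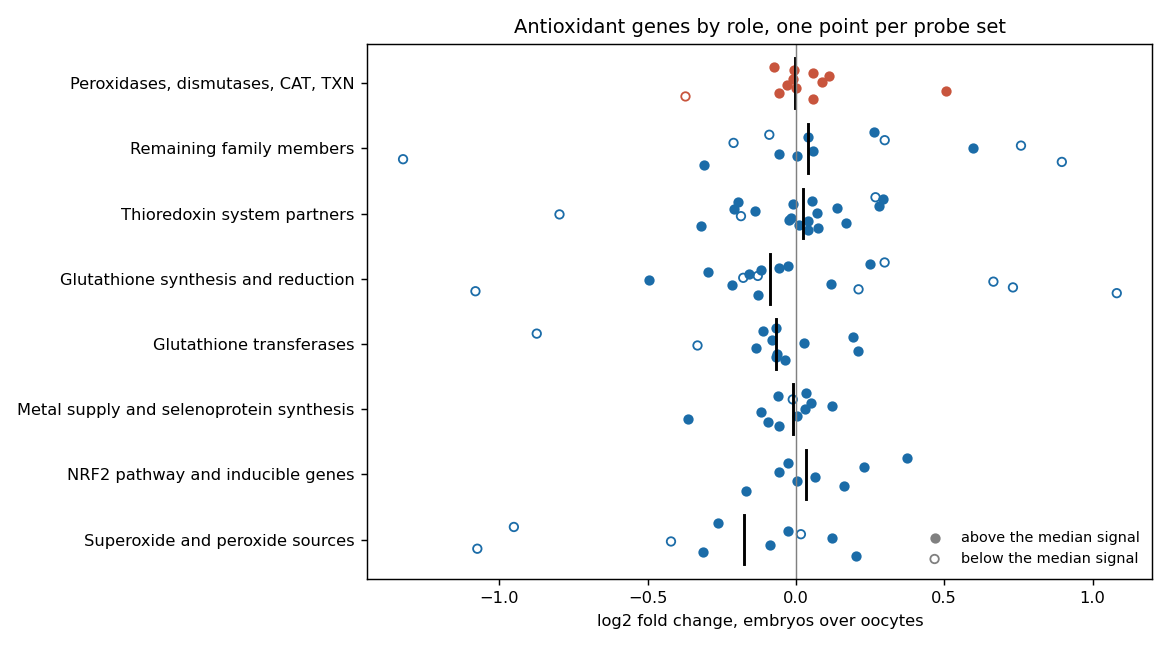
Log2 fold change of embryos over oocytes (x axis) for the 12 probe sets described (red) and for 92 probe sets of other antioxidant genes by role (blue). Filled points lie above and open points below the median signal of the array, black lines are medians, and the median of the 12 is 0.00.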

How the data were processed

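The authors summarised 6 Affymetrix porcine arrays with MAS5 5.1 and deposited 1 intensity per probe set on a linear scale, each array scaled to the same trimmed mean. These values hold no Lowess normalization. Detection calls and single probes were not used here. Signals were floored at 0.1, put on the log2 scale and normalized by cyclic loess, and 124 control probe sets were removed. All 23999 others were fitted with limma 3.58.1 in R 4.3.3 (group only, with no sow term; variance trend; Benjamini-Hochberg at 0.05). The mixed model of the methods, with probe and array terms on single probes, was not fitted. Figures used matplotlib 3.10.9.

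Symbols came from the array's annotation, where 10069 tested probe sets have 1 symbol and 198 several; 9961 matched the current gene table (Sscrofa11.1), which changed 0 symbols. All probe sets of the 10 genes are given. Of other antioxidant groups, genes with an unadjusted p under 0.05, or else up to 2 with the smallest p, are named, and the other peroxiredoxins and brightest probe sets were added after their values were seen. The members and lists were chosen with earlier results of these data known.

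Equal array numbers were taken as the sow, since 6 of 6 per-animal ratios in the methods equal ratios of same-numbered arrays. Within sows 1, 2 and 3 the arrays deviated together from the group means (r = 0.207, 0.173 and 0.100 across probe sets). The number of arrays, 3 per group, limits the precision. The code was tested on simulated data. Alternatives were unnormalized values, quantile normalization, median scaling, an offset of 32, a filter at the median signal, a fit with no variance trend, a sow block, the 5'/3' control ratio as a covariate, and leaving out each array.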

Additional observations from a re-analysis of the deposited data

How the results depend on the processing

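Under each of the 14 alternatives limma gave 0 calls on the whole array at an adjusted p of 0.05. At an unadjusted p under 0.05 there were 692, which became 232 with only probe sets above the median signal, 2088 with the sow as a replicate block and 1253 with the 5'/3' covariate, and 554 to 1036 when single arrays were left out. Of the 12 probe sets 0 had an unadjusted p under 0.05, which became 1 with the sow as a block and 0 to 1 when single arrays were left out (1 without oocytes of sow 2, the dimmer GPX4 probe set). Of the 92 probe sets of other antioxidant genes 0 became 5 with the block, 1 without the variance trend, 2 with the 5'/3' covariate and 0 to 2 when single arrays were left out, namely 1 without the oocyte array of sow 3, 1 without the embryo array of sow 1 and 2 without that of sow 3. The block changed no call at an adjusted p of 0.05.

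The median log2 fold change of the 12 ran from -0.0080 to 0.061 when single arrays were left out, highest without oocytes of sow 2. The dimmer GPX4 probe set, PRDX2 and PRDX6 kept their sign under all alternatives. Signs turned for PRDX1 to -0.0030 with the values as deposited and to -0.071 with the 5'/3' covariate, for the brighter TXN probe set to 0.020 with quantile normalization and to 0.10 with the covariate, and for the dimmer TXN probe set to 0.030 with the covariate. When single arrays were left out the log2 fold change ran from -0.073 to 0.16 for GPX1, from -0.65 to 0.050 for GPX3, from -0.17 to 0.086 for the brighter GPX4 probe set, from -0.058 to 0.071 for PRDX1, from -0.099 to 0.059 for SOD1, from -0.058 to 0.26 for SOD2, from -0.021 to 0.13 for CAT, and from -0.11 to 0.063 and -0.22 to 0.097 for the brighter and dimmer TXN probe sets. The cause was not tested. GPX3 gave no value with only probe sets above the median signal.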
